A study of Mus musculus with 30 samples.

Results

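Open chromatin was described at the loci of 4 regulators of mouse spermatogonia, Gfra1, Zbtb16, Kit and Ccnd2, from ATAC-seq peak lists of 4 germ cell stages. ATAC-seq marks accessible DNA through cuts made by the transposase Tn5. The peaks described are all those listed with a midpoint in chr5 75.90 to 76.10 Mb (Kit), chr6 127.00 to 127.20 Mb (Ccnd2), chr9 48.40 to 48.70 Mb (Zbtb16) or chr19 58.25 to 58.60 Mb (Gfra1). They numbered 104 of the 185395 peaks in all lists. Of these, 25 of 56792 came from primitive type A spermatogonia (PriSG-A), 47 of 88369 from type A spermatogonia (SG-A), 30 of 33775 from pachytene spermatocytes (pacSC) and 2 of 6459 from round spermatids (rST). The windows were chosen by gene with earlier results of these lists in view, and their members were selected on being listed as peaks, so every difference between stages is a description without a test. Positions are those of the lists, 1-based. Some listed peaks lie past the last gene of the GRCm38 assembly (mm10) on 10 of 21 chromosomes, by 7.20 Mb on chromosome 7, and the positions fit the older mm9 assembly. An annotation of that assembly was not used here. The windows therefore carry the genes' names through the choice of window alone, and no peak is assigned to a promoter, exon or intron. In GRCm38 the genes span 81736 bp (Kit), 27027 bp (Ccnd2), 184429 bp (Zbtb16) and 220366 bp (Gfra1), so each window is longer than its gene.

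All cells came from testes of C57BL/6 mice, with no genotype or treatment distinguishing the groups. PriSG-A were taken 6 days after birth (3 libraries), SG-A 8 days after birth (3 libraries), and pacSC and rST from adults (2 libraries each), so stage and age change together. Each stage has 1 list for all its libraries, which leaves no replicate error and no test between stages. Pooling of animals was not given in the sources used here, and the labelled cell types were not checked against marker genes.

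Spermatogonia are the mitotic cells of the testis that renew themselves and supply meiosis. Stem and progenitor cells among them respond to the growth factor GDNF, which binds the co-receptor encoded by Gfra1 and signals through the receptor Ret. Zbtb16 encodes PLZF, a zinc finger repressor needed to keep this pool. Cells that begin to differentiate turn on Kit, the receptor for stem cell factor, and Ccnd2, a D-type cyclin that drives entry into the cell cycle. Pachytene spermatocytes and round spermatids have left mitosis behind, and the spermatogonial programme is known to be shut down in them.

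Peak sequences could not be read, since a genome of the lists' assembly was not used here. RefSeq promoter windows, 250 bases before to 50 after a transcript start, were matched by symbol for Kit and Gfra1, 2 of the 4 genes, on GRCm38.p6. Kit matched 2 windows, and the first is shown beside the only Gfra1 window. The second Kit window, chr5:75574741-75575040, overlaps the first almost fully and is not shown. The genes had 0 (Kit) and 20 (Gfra1) peaks in the pacSC list. Coordinates of the windows belong to GRCm38.p6 and cannot be laid over the peak positions. Sequences are 5′ to 3′ on the gene's strand, with CpG dinucleotides in capitals. The Kit window is chr5:75574737-75575036 (+ strand) and the Gfra1 window chr19:58455349-58455648 (- strand).
Kit: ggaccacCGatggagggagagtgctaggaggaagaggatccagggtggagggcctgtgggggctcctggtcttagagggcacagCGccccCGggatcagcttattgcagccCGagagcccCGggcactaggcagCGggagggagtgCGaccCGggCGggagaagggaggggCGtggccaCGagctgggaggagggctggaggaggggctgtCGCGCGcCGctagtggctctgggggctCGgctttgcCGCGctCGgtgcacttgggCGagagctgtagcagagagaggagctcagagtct
Gfra1: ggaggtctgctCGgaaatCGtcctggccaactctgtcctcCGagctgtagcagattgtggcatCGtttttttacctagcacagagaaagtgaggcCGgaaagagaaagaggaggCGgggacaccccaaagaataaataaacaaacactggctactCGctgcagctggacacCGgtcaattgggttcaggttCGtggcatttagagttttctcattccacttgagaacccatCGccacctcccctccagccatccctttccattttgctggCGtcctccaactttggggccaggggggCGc
The Kit window shown held 20 CpGs at a GC content of 69%, and 26.5% of 32851 mouse promoter windows of the same length held at least as many. The second Kit window held 21 CpGs, a number reached by 24.8% of windows. The Gfra1 window held 12 CpGs at 54% GC, a number reached by 39.6% of windows, against a median of 7 CpGs and 52.7% GC. The letters GGGCGG (GC box), searched on both strands, occurred once in the Kit window and not in the Gfra1 window, against at least 1 match in 35.7% of all windows. TATAAA and CACGTG, also searched on both strands, occurred in neither, against 13.6% and 7.15% of all windows. Each match is a description of letters only.

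The 4 windows differed in how many peaks were listed and at which stage. In the 200 kb at Kit, PriSG-A listed 3 peaks, SG-A listed 6, pacSC none and rST 1. In the same order of stages, the 200 kb Ccnd2 window held 13, 19, 5 and 0 peaks. The 300 kb Zbtb16 window held 2, 13, 5 and 0, and the 350 kb Gfra1 window held 7, 9, 20 and 1. Thus SG-A had the most peaks at Kit, Ccnd2 and Zbtb16, and pacSC at Gfra1. Without Gfra1, pacSC had 10 peaks, and with every list shortened to the 6459 highest peaks by −log10 q, as many as rST has, SG-A and PriSG-A had 0 in all 4 windows and pacSC 3. When the genome was divided into windows of equal length, the medians were 3, 4, 2 and 0 peaks per 200 kb, 5, 7, 3 and 0 per 300 kb, and 6, 8, 3 and 0 per 350 kb. At least as many SG-A peaks as at Ccnd2 were found in 7.64% of windows, and as many PriSG-A peaks in 4.62%. For SG-A at Zbtb16 the share was 30.3%, at Gfra1 48.7% and at Kit 43.0%. For pacSC at Gfra1 it was 2.38%. Only Ccnd2 in the spermatogonial lists and Gfra1 in the pacSC list were thus in the highest 10% of windows.

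**Figure D1:**
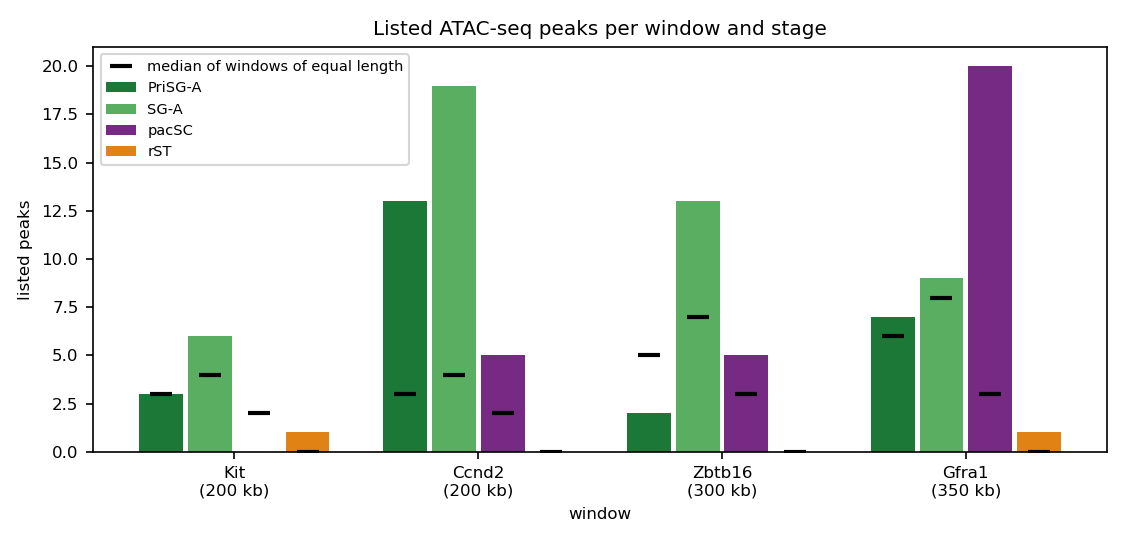
Listed ATAC-seq peaks (y axis) in each window (x axis) for the 4 stages (bars), with the median count of all windows of equal length as a black dash. Most bars stand above the dash. The widest gaps are those of Ccnd2 in both spermatogonial lists and of Gfra1 in pacSC, where 20 peaks compare with a median of 3.

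Each listed peak carries an area value (column 7 of the list) that grows with its width, so the area per bp is used as its level. Levels from separate lists depend on read depth, which is unknown. The median area per bp of whole lists was 0.506 (PriSG-A), 0.604 (SG-A), 0.579 (pacSC) and 0.457 (rST). Over the 4 windows the medians were 0.531, 0.494, 0.511 and 0.368 in the same order. Median widths in the windows were 219, 196, 124.5 and 72 bp, against 210, 182, 190 and 188 bp in the whole lists. Typical peaks of these loci were thus near the middle of their list or below it. Peaks whose −log10 q reached 5 are called high-confidence here. SG-A had 4 of 47 such peaks in the windows, against 18.5% of its whole list. PriSG-A had 0 of 25 (9.49% of its list), pacSC 2 of 30 (10.7%) and rST 0 of 2 (3.30%). The 4 SG-A peaks lay at Kit (1), Zbtb16 (1) and Ccnd2 (2), and both pacSC peaks at Gfra1.

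**Figure D2:**
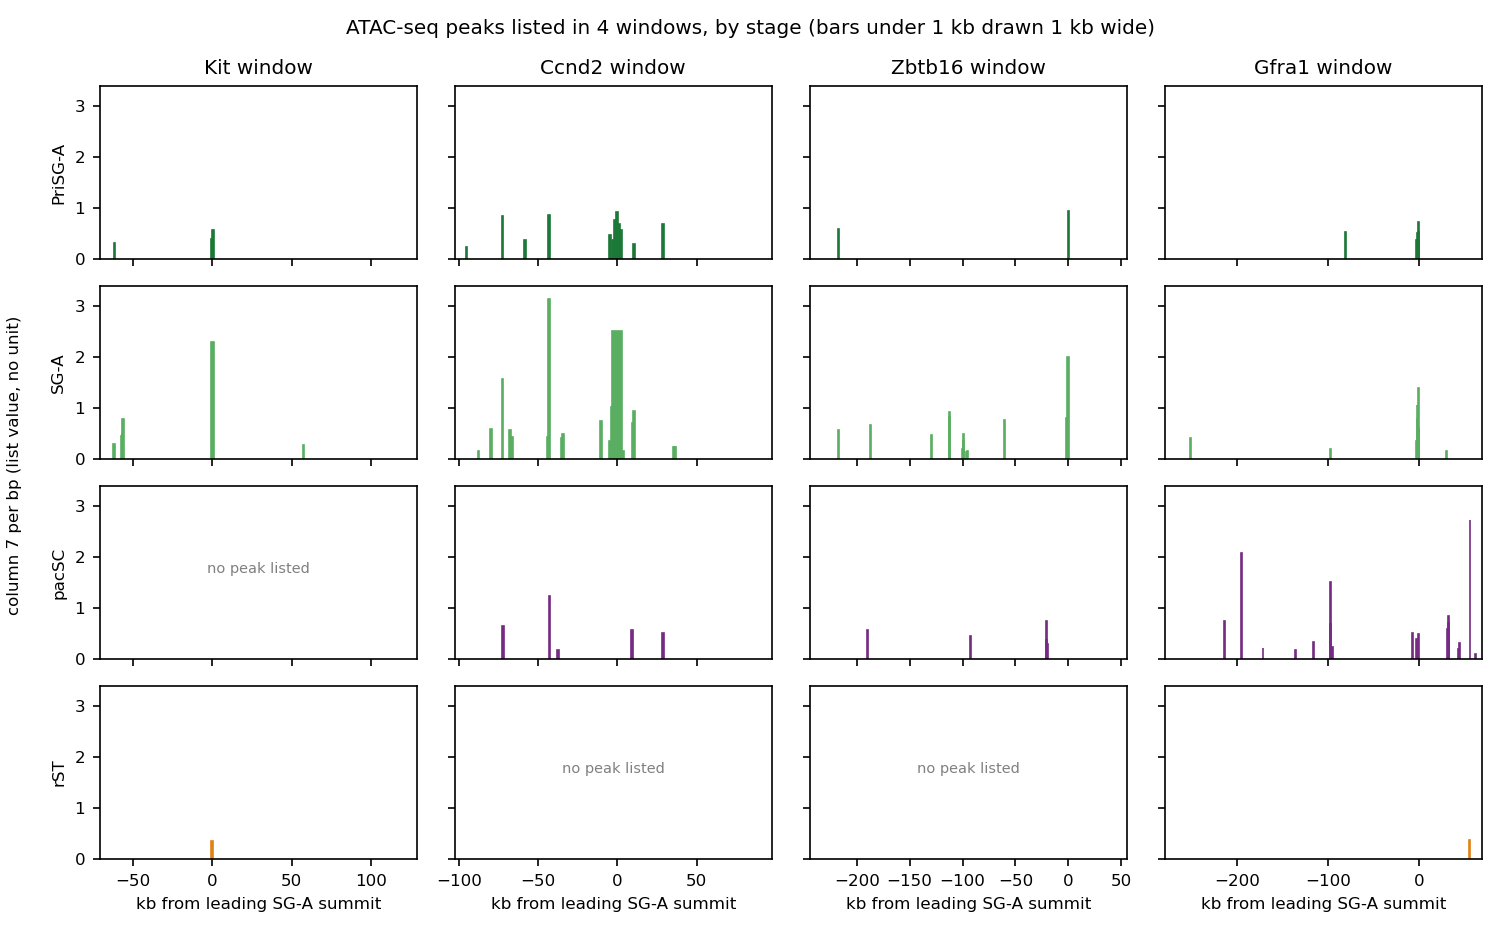
Peaks of each window (columns) at each stage (rows), with distance from the summit of the SG-A peak of largest area in kb (x axis) and area per bp (y axis, no unit). Bars under 1 kb are drawn 1 kb wide. Since 0 kb is set by the largest SG-A peak, SG-A area there follows in part from that choice. Most PriSG-A area also lies within 5 kb of it, and the highest pacSC bars at Gfra1 sit away from it.

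Gfra1, the GDNF co-receptor gene, had a compact group of spermatogonial peaks and, apart from it, a spread of pacSC peaks. Within 5 kb of the leading SG-A summit (chr19:58530320) lay 6 of 7 PriSG-A peaks and 6 of 9 SG-A peaks, holding 93.5% and 95.9% of the area listed in the window. Only 3 of 20 pacSC peaks lay there, with 1.80% of the pacSC area, and no rST peak. This summit was chosen by SG-A area, so the SG-A share is in part fixed by that choice. The leading SG-A peak, 58529927 to 58530681 (755 bp), had an area per bp of 1.40 and a −log10 q of 4.73. It overlapped 2 PriSG-A peaks, of 438 bp (0.730 per bp) and 156 bp (0.314 per bp). Summits of the SG-A peak and the wider PriSG-A peak were 14 bp apart, and no pacSC or rST peak overlapped either.

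The other spermatogonial peaks of this group formed a row below the leading one. At 58528171 to 58528477 SG-A had 1.06 per bp against 0.379 in the overlapping PriSG-A peak. At 58528620 to 58529171 SG-A had 0.777 per bp and PriSG-A 0.509, and a pacSC peak of 201 bp overlapped by its edge at 0.161 per bp. At 58529333 to 58529601 SG-A had 0.615 and PriSG-A 0.313. At the narrowest SG-A peak with counterparts in other lists, 3 stages were listed. A 98 bp PriSG-A peak, a 109 bp SG-A peak and a 100 bp pacSC peak had 0.531, 0.572 and 0.501 per bp. Their summits were at 58529731, 58529774 and 58529773, the last 2 differing by 1 bp. The ratio of SG-A over PriSG-A was 1.08, against a whole-list median of 2.15. That of pacSC over SG-A was 0.876, against 0.360. The remaining SG-A peak of the group, at 58527511 to 58527606, had 0.347 per bp and no counterpart. Outside the group lay a PriSG-A peak at 58449239 to 58449335 (0.531 per bp) and SG-A peaks at 58278503 to 58278577 (0.419) and 58561097 to 58561292 (0.165), each in its own list alone.

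The pacSC peaks of the Gfra1 window were mostly not in the spermatogonial lists: 17 of 20 overlapped neither, against 43.8% of the whole pacSC list. The strongest per bp was a 772 bp peak at 58586359 to 58587130, with 2.74 per bp and a −log10 q of 7.59, in the 97.9th percentile of the pacSC list by area per bp. It was the only pacSC peak of the windows also listed in rST, as a 78 bp peak (58586467 to 58586544) with 0.383 per bp. Of all pacSC peaks 14.3% were listed in rST. The widest and largest by area was at 58334374 to 58335710, with 1337 bp, 2.08 per bp and a −log10 q of 6.19, in pacSC alone. Both were high-confidence peaks, of which 7.74% in the whole pacSC list overlapped no spermatogonial peak. A pacSC peak of 193 bp at 58432987 to 58433179 had 1.52 per bp. It overlapped a weak SG-A peak of 126 bp with 0.203 per bp, and this was the only overlapping pair of the windows in which pacSC exceeded SG-A (ratio 7.46, against a whole-list median of 0.360). The other 17 pacSC peaks had areas per bp from 0.0973 to 0.844, and 4 of them lay together between 58562373 and 58563326.

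The chromosomal position of Gfra1 is given beside these counts, and its part in them was not tested. Its window lay 2.92 Mb from the last listed position of chromosome 19, in the distal zone of 10 Mb, where the pacSC list was dense: 39.5 peaks per Mb outside the window and 57.1 inside it, against 21.96 over the whole chromosome. The flanking stretches of 350 kb on either side held 19 and 18 pacSC peaks, close to the 20 of the window. In SG-A the window had 25.7 peaks per Mb against 36.6 in the rest of the distal zone. The other 3 windows lay 22.4 to 76.5 Mb from the distal end.

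Zbtb16, the gene of the repressor PLZF, had 2 PriSG-A peaks and 13 SG-A peaks. Both PriSG-A peaks were listed again in SG-A, as were 71.9% of the whole PriSG-A list. The leading SG-A peak, at 48643022 to 48645021, was 2000 bp wide, with 2.01 per bp and a −log10 q of 7.80. The PriSG-A peak within it was 739 bp wide (48644017 to 48644755), with 0.940 per bp and a −log10 q of 4.06, the highest of both values among PriSG-A peaks of the windows. Summits were 185 bp apart. The other shared peak lay toward the lower edge of the window, at 48426620 to 48427059 in SG-A (440 bp), with 0.562 per bp in SG-A and 0.582 in PriSG-A.

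The remaining 11 SG-A peaks at Zbtb16 were in no other list, a pattern of 44.5% of all regions. They were 28 to 715 bp wide, with 0.132 to 0.922 per bp, and none reached a −log10 q of 5 (highest 3.45). Several lay close together, as the 5 between 48544477 and 48549132 and the pair between 48531807 and 48532290. The 5 pacSC peaks were narrow (67 to 140 bp, 0.305 to 0.744 per bp). None overlapped a spermatogonial peak, as was true of 43.8% of the whole pacSC list. The 5 lay at 48454418 to 48454526, 48552464 to 48552563, 48623990 to 48624056, 48624201 to 48624340 and 48624456 to 48624538. The last 3 form a group about 20 kb below the leading SG-A summit, and the nearest of them was 18483 bp from the leading peak. No rST peak was listed in the window, as in 62.6% of 300 kb windows.

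Kit, the receptor gene of differentiating spermatogonia, had 1 wide peak and little else. In SG-A this peak ran from 75970337 to 75972047 (1711 bp), with 2.29 per bp and a −log10 q of 7.58, and it held 95.7% of the SG-A area of the window. PriSG-A had 2 peaks within it, of 1176 bp (75970765 to 75971940, 0.575 per bp, −log10 q 3.64) and 100 bp (75970548 to 75970647, 0.386 per bp). The SG-A summit lay 687 bp below that of the wider PriSG-A peak. In rST a 66 bp peak at 75970920 to 75970985 was listed inside the same region, with 0.354 per bp and a −log10 q of 1.90, and its summit was 60 bp from the SG-A summit.

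No pacSC peak was listed anywhere in the Kit window or in the 200 kb on either side, and the nearest was 529514 bp from the leading SG-A peak. Of 200 kb windows, 28.4% held no pacSC peak. The pattern of the leading Kit region, in PriSG-A, SG-A and rST without pacSC, was shared by 138 of 117075 regions (0.118%). The rST peak behind it was narrow and near the minimum area of 20.0 that every list shows, with an area of 23.3. Of rST peaks, 88.3% overlapped a pacSC peak and 74.4% an SG-A peak. The 5 other SG-A peaks at Kit were 52 to 114 bp wide with 0.273 to 0.794 per bp, and 3 of them lay together between 75914215 and 75914798. An 86 bp PriSG-A peak at 75909324 to 75909409 (0.312 per bp) lay 190 bp from an SG-A peak without overlapping it.

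Ccnd2, the cyclin D2 gene, had the largest peak of the 4 windows. In SG-A it ran from 127099355 to 127105799, a width of 6445 bp, with 2.51 per bp, an area of 16164 (rank 111 of 88369) and a −log10 q of 8.26. Only 24 SG-A peaks were as wide (0.0272%). In PriSG-A the same stretch was listed as 6 separate peaks of 90 to 1340 bp, which covered 2987 bp or 46.3% of it, with 0.296 to 0.927 per bp. An overlap with at least 6 PriSG-A peaks was seen for 21 SG-A peaks (0.0238% of the list), and with at least 2 for 7.80%. The widest of the 6, at 127101664 to 127103003, had its summit 359 bp from the SG-A summit.

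This peak was not listed in pacSC or rST, the nearest pacSC peak being 6055 bp away. Of the 24 SG-A peaks at least as wide, 23 overlapped a pacSC peak (95.8%), the Ccnd2 peak being the exception. Of the 111 with at least its area, 109 did (98.2%). The locus was chosen with its peaks known, so these shares are background and not a test.

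Of the other 18 SG-A peaks at Ccnd2, 2 overlapped a pacSC peak, against 16.9% of the whole SG-A list. At 127059075 to 127059996 SG-A had its highest area per bp of all 4 windows, 3.15, with a −log10 q of 8.46. PriSG-A had 0.863 per bp there (464 bp) and pacSC 1.24 per bp (637 bp, −log10 q 4.48). The 3 summits, at 127059560, 127059586 and 127059603, fell within 43 bp. At 127029699 to 127030690 the areas per bp were 1.58 in SG-A (992 bp), 0.848 in PriSG-A (723 bp) and 0.658 in pacSC (264 bp). Both regions were thus kept in pacSC, narrower than in SG-A, while the leading region between them and the upper window edge was not. Regions in PriSG-A, SG-A and pacSC without rST made up 7.85% of all regions.

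The weaker Ccnd2 peaks showed further patterns. A region at 127131363 to 127131497 was listed in PriSG-A (135 bp, 0.687 per bp) and pacSC (100 bp, 0.520 per bp) with summits 15 bp apart, and not in SG-A. This pattern was seen in 0.436% of all regions. Regions of both spermatogonial stages lay at 127097652 to 127098346 and 127112735 to 127113184, with SG-A levels of 0.352 and 0.939 per bp beside PriSG-A levels of 0.480 and 0.291. The 14 peaks listed in SG-A alone, a pattern of 44.5% of all regions, were 81 to 763 bp wide with 0.141 to 1.03 per bp. The highest of these, at 127099122 to 127099248, lay just below the leading peak. The pacSC peaks at 127064977 to 127065249 (0.170 per bp) and 127111855 to 127111944 (0.563 per bp) were in pacSC alone, the second 84 bp from an SG-A peak.

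**Figure D3:**
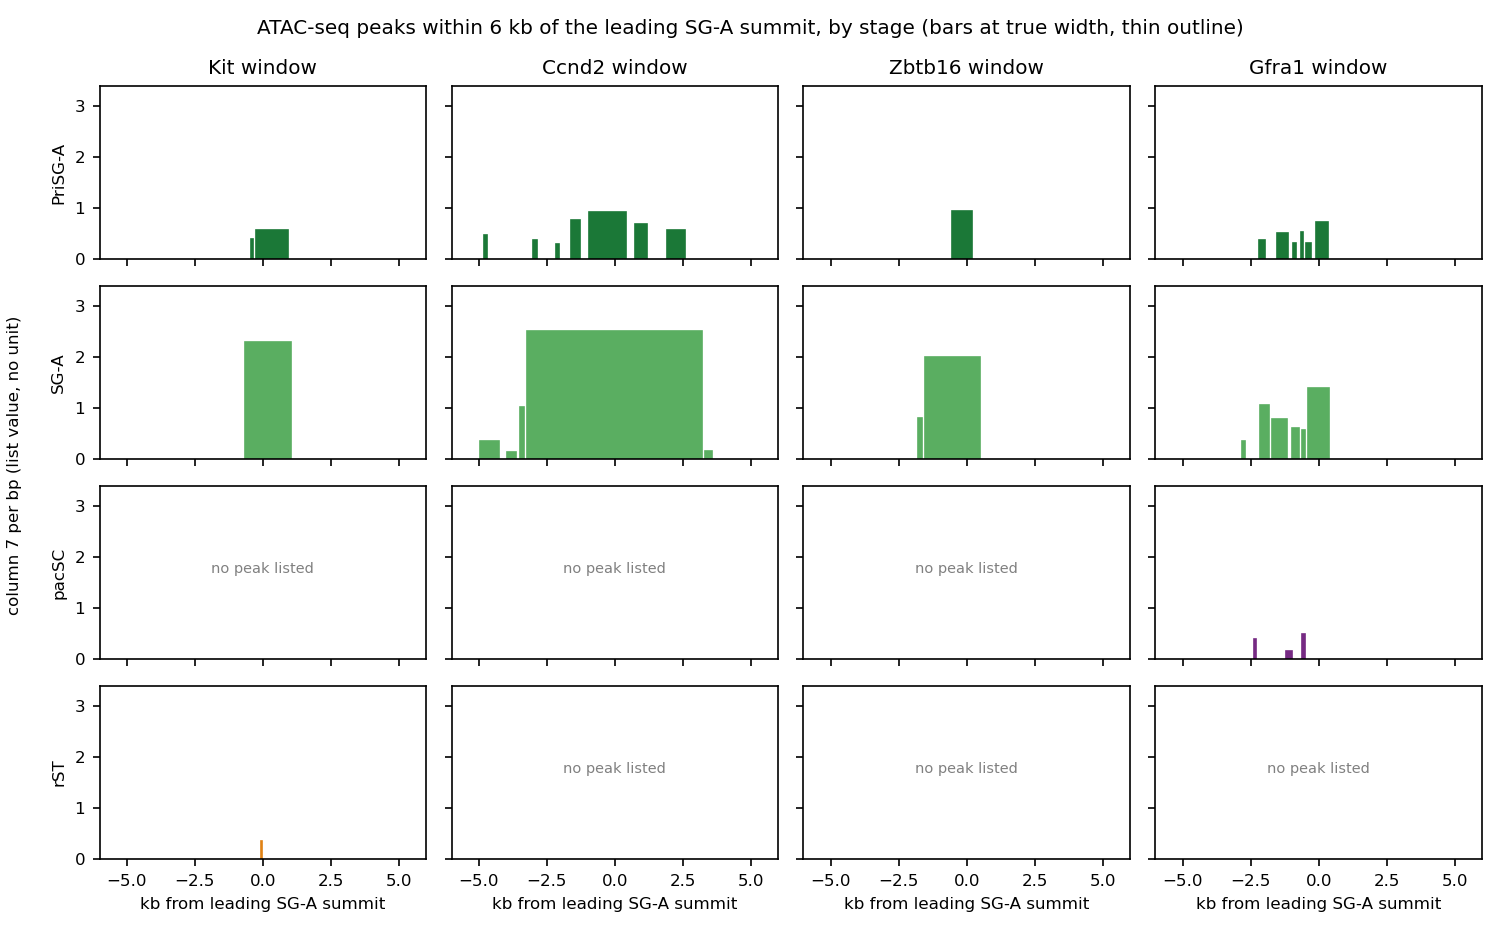
The same plot within 6 kb of the leading SG-A summit of each window, with bars at true width (x axis in kb, y axis area per bp). The 6445 bp SG-A peak at Ccnd2 spans 6 PriSG-A peaks. In pacSC the Kit, Ccnd2 and Zbtb16 panels are empty, and rST has a peak of 66 bp at Kit.

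Day 6 and day 8 spermatogonia were compared at peaks that overlapped. Of the 25 PriSG-A peaks, 20 overlapped an SG-A peak (80.0%, 95% Wilson interval 60.9 to 91.1), against 71.9% of the whole list. With a reciprocal overlap of 50% the order turned, to 24.0% in the windows against 32.2%, and likewise with the SG-A summit required inside the PriSG-A peak, to 44.0% against 49.9%. Of the 47 SG-A peaks, 13 overlapped a PriSG-A peak (27.7%, 16.9 to 41.8), against 38.5%. By window these were 1 of 6 at Kit, 5 of 19 at Ccnd2, 2 of 13 at Zbtb16 and 5 of 9 at Gfra1. Shared SG-A peaks had a median width of 695 bp and the others 136 bp, as in the whole list (647 and 105 bp). Intervals cover counting error only and treat neighbouring peaks as independent.

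In 18 of the 20 overlapping pairs the area per bp was higher in SG-A, against 84.8% of all pairs of the 2 lists, and in 13 it was at least 2-fold higher, against 54.8%. The median ratio was 3.01, with a range from 0.734 to 8.48, against 2.15 over 42673 pairs. By window the median was 4.97 at Kit (2 pairs), 3.46 at Ccnd2 (10 pairs), 1.55 at Zbtb16 (2 pairs) and 1.94 at Gfra1 (6 pairs). The leading Ccnd2 peak alone gave 6 of the 20 pairs. Both Kit pairs shared 1 SG-A peak, as did 2 of the 6 Gfra1 pairs. Among the 10 pairs of 1 peak with 1 peak the median was 1.91, against 1.95 for such pairs of the whole lists.

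**Figure D4:**
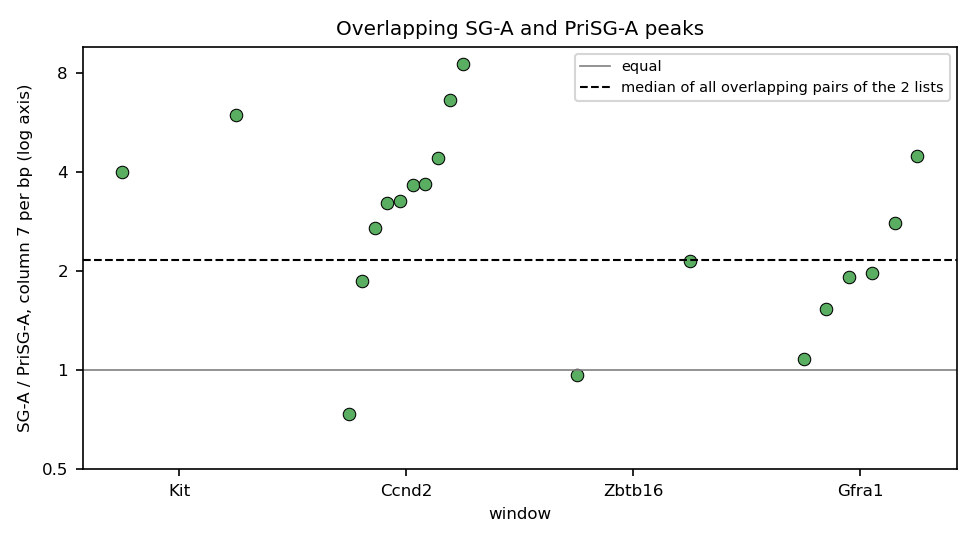
Ratio of area per bp, SG-A over PriSG-A, for each overlapping pair of peaks (points, log y axis) by window (x axis), with equality (grey) and the median of all 42673 pairs (dashed). Both Kit pairs and 8 of 10 Ccnd2 pairs lie above the dashed line of 2.15, as do the Gfra1 pairs at 2.80 and 4.46. Both Kit pairs share 1 SG-A peak, and 6 of the Ccnd2 pairs share another.

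Spermatogonial peaks of the windows were also compared with the lists of the later stages. Of the SG-A peaks, 5 of 47 overlapped a pacSC peak (10.6%, 4.63 to 22.6), against 16.9% of the whole list. Of the PriSG-A peaks, 5 of 25 did (20.0%, 8.86 to 39.1), against 25.6%. Both intervals include the share of the whole list. The overlaps were at Ccnd2 and Gfra1, with none at Kit or Zbtb16. Of the 4 high-confidence SG-A peaks, 1 overlapped a pacSC peak, against 64.3% of such peaks in the whole list. It was the Ccnd2 peak of highest area per bp, and the leading peaks of Ccnd2, Kit and Zbtb16 were the others. The share of 1 in 4 rests on few peaks and was given no interval, so no loss is read from it. In rST 1 of 47 SG-A peaks (4.09% of the whole list) and 1 of 25 PriSG-A peaks (6.46%) had a counterpart, both at Kit.

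Seen from the later stage, 5 of 30 pacSC peaks overlapped an SG-A peak (54.2% of the whole list), 5 of 30 a PriSG-A peak (48.1%) and 1 of 30 an rST peak (14.3%). The overlapping peaks were thus few at these loci. Of the 24 pacSC peaks that overlapped no spermatogonial peak, 17 lay at Gfra1 and 5 at Zbtb16. In 1 of 5 pairs the area per bp was higher in pacSC than in SG-A, against 13.4% of all such pairs, and the median ratio was 0.417. Against PriSG-A it was higher in 1 of 5 pairs, at the Ccnd2 region of 127059075, against 38.1%, and the median ratio was 0.775. The 2 ratios are close to the whole-list medians of 0.360 and 0.788. A difference in read depth, fewer accessible cells in a stage and less access per cell cannot be told apart in these bulk samples.

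Joined over the 4 lists, the windows held 76 regions, of which none was listed at all 4 stages, against 2.82% of all regions. SG-A alone held 33 (43.4%, against 44.5% of all regions) and pacSC alone 23 (30.3%, against 11.7%), 16 of them at Gfra1. Both spermatogonial stages and no later one held 8 (10.5%, against 16.7%) and PriSG-A alone 4 (5.26%, against 13.0%). PriSG-A, SG-A and pacSC held 4 (5.26%, against 7.85%), at Ccnd2 (2) and Gfra1 (2). SG-A and pacSC shared 1 (1.50% of all regions), pacSC and rST 1 (0.897%), PriSG-A and pacSC 1 (0.436%), and PriSG-A, SG-A and rST 1 (0.118%).

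The rank of each window's highest peak differed between stages. By −log10 q, the highest SG-A peak of a window stood at the 89.9th percentile of its list for Kit, the 92.1st for Ccnd2, the 90.4th for Zbtb16 and the 80.3rd for Gfra1. In PriSG-A these were 78.6, 81.5, 83.1 and 80.5. In pacSC the highest was 98.2 at Gfra1, 85.0 at Ccnd2 and 53.5 at Zbtb16. The rST peaks were low, at 14.4 (Kit) and 17.8 (Gfra1). Gfra1 thus had the lowest leading peak of the 4 windows in SG-A and the highest in pacSC. These highest ranks come from unequal numbers of peaks, in pacSC 20 at Gfra1 and 5 each at Ccnd2 and Zbtb16. Median pacSC percentiles were 36.1 at Gfra1, 44.0 at Ccnd2 and 29.3 at Zbtb16.

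**Figure D5:**
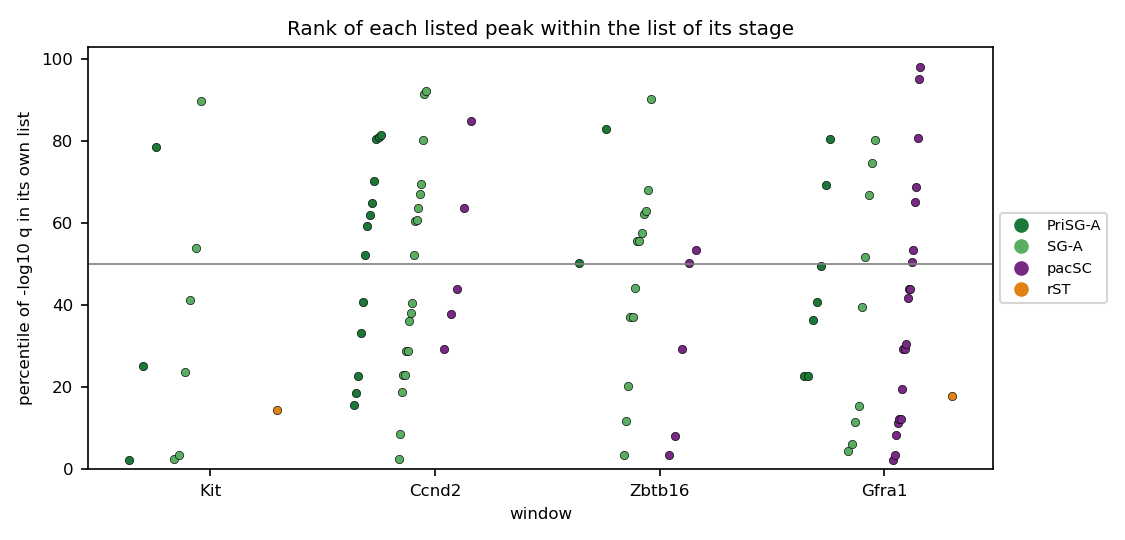
Percentile of −log10 q of each listed peak within the list of its stage (y axis) by window (x axis) and stage (colour), with the median of a list in grey. The highest SG-A peaks of Kit, Ccnd2 and Zbtb16 sit near 90, and the highest pacSC peak of Gfra1 at 98.2.

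Peaks nearest the window edges were 62 to 739 bp wide. The peaks nearest inside the lower edges, at 7.56 kb (Ccnd2) to 28.5 kb (Gfra1), had 0.238 to 0.562 per bp. Those nearest inside the upper edges, at 6.96 kb (Gfra1) to 71.4 kb (Kit), had 0.0973 to 0.940 per bp. The nearest outside were 14.3 to 70.4 kb away, with 0.229 to 0.977 per bp, and the highest of these was a 109 bp SG-A peak 14.3 kb below the Kit window.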

How the data were processed

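Of 30 samples in the series, the 10 ATAC-seq samples were used through the 4 peak lists deposited by the authors. Per the labels, 1 list stands for all libraries of a stage. The name of the PriSG-A list is garbled and was read with the inserted series prefix taken out. The submitters' processing notes name Bowtie2 2.2.5, Bowtie, SAMtools and mm10 but give them no role. The peak caller, its settings, the joining of replicates and any shift for Tn5 were not given in the sources used here.

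Each deposited peak has a score, a signal value (column 7), a summit offset and a −log10 q value. The deposited score is the signal value over the width, times 1000 and capped there, within 1 for 100% of peaks, so the signal value is an area. The lowest deposited signal value is 20.0 in each list. Read depth is unknown.

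Peaks were placed in windows by midpoint. Overlap means at least 1 bp, regions join overlapping peaks of all lists, and windows of equal length tile each chromosome's listed span. Counting used Python 3.11.15, pandas 2.3.3 and scipy 1.17.1, and the overlap code was tested on simulated lists. No test was made between stages. The members and lists were chosen with earlier results of these data known. Peaks named one by one are those of highest area or area per bp per window and stage, regions listed at 3 stages, pacSC and rST peaks where a window has at most 6, and those nearest the edges. Other peaks named by position were chosen after their values were seen. No other gene was named, since no annotation of the lists' assembly was used.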

Additional observations from a re-analysis of the deposited data

How the results depend on the processing

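No paired analysis was possible because a stage's libraries share a single list, and leaving out a replicate could not be done either. Counting high-confidence peaks alone (−log10 q of 5 or more), PriSG-A had 0, SG-A 4, pacSC 2 and rST 0. With every list shortened to the length of the rST list by −log10 q, PriSG-A had 0, SG-A 0 and pacSC 3. SG-A thus did not have the most peaks in lists of equal length. Such a cut keeps a smaller share of the SG-A list (88369 peaks) than of the pacSC list (33775). The highest SG-A peak of the windows, at the 92.1st percentile of its list, fell below it. With peaks less than 1000 bp apart counted once, an alternative chosen after seeing the data, there were 14 in PriSG-A and 26 in SG-A. Without Gfra1, also chosen then, pacSC had 10 and rST 1. With a reciprocal overlap of 50%, 24.0% of PriSG-A peaks were listed in SG-A (32.2% of the whole list), and of SG-A peaks 12.8% in PriSG-A (20.7%) and 4.26% in pacSC (6.65%). With the other list's summit required inside the peak, 44.0% of PriSG-A peaks were listed in SG-A (49.9%). Under both settings the PriSG-A share fell below that of the whole list, where without them it is above. With high-confidence peaks of both lists, 0% of the 4 SG-A peaks were listed in PriSG-A (32.6% of the whole list) and 0% in pacSC (18.5%). Both values must follow from the counts. No PriSG-A peak of the windows reached the threshold. The 2 pacSC peaks that reached it lay at Gfra1, where no SG-A peak did. The PriSG-A share then has no value, and shortened lists left no spermatogonial peak, so no share has a value there. The median SG-A over PriSG-A ratio of 3.01 became 1.91 for pairs of 1 peak with 1 peak (whole lists 1.95), 2.00 for −log10 q (1.71) and 2.36 with reciprocal overlap (2.01). Of 27 alternative values of the counts, shares and ratio over all 4 windows, 19 moved and 8 did not. For single windows 24 of 32 moved. Not every change was called a move: the ratio of 2.36, against 3.01, was not. The 2 single-window settings only remove peaks, so a count could not rise. The 8 single-window values that stayed were fixed in advance. They were counts of 0, or rST counts in a list cut to its own length. These tallies therefore do not measure how robust the counts are. The cause of the moves was not tested, beyond fewer peaks entering. Unknown depth limits every comparison between lists.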
